A study of Mus musculus with 30 samples.

Results

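Transcripts made mainly by hepatocytes were followed across 30 arrays of mouse blood RNA. The set was 37 genes of secreted liver proteins and liver metabolism, chosen because liver transcripts had stood out on some of these arrays, so their levels from array to array are a description and carry no test. Of the 37 genes, 36 had a probe of that gene name, out of 29676 gene names on the array. Serpina1b had no probe under that name. The brightest probe stood for a gene, and 35 of the 36 passed the filter on dim probes that left 18733 genes. Cps1, the mitochondrial enzyme that starts the urea cycle, did not pass, since it was well above background on 5 arrays.

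Blood had been drawn by cardiac puncture into PAXgene RNA stabilising solution from male C57BL/6J mice of 3 genotypes, p38WT, p38DKI and p38DN. Mice of each genotype were either unirradiated or had received 7 Gy of x-rays and were bled 24 h later, with 5 arrays in each of the 6 groups, and the genotype names are used as the labels write them. Slides 1 to 5 carried p38WT and p38DKI and shared 1 scan day. Slides 6 to 10 carried p38DN, with 1 unirradiated and 1 irradiated array on each slide, and had 5 other scan days, so a level in p38DN against the other genotypes cannot be told apart from the slide and scan period.

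Hepatocytes make most of the protein of blood plasma, including albumin, apolipoproteins, fibrinogen, prothrombin and protease inhibitors. They also carry out urea synthesis, glucose release and the oxidation of drugs and fatty acids by cytochromes P450. Circulating blood cells are not known as a main source of most of these transcripts, although haptoglobin is also a product of neutrophils and transferrin and class I histocompatibility genes are transcribed in many cell types.

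A level is the log2 processed intensity after the array's own 75th percentile was subtracted. The excess of a gene on an array is its level minus that gene's own median over the 30 arrays, also in log2 units, so that no probe is set against another. No member was saturated on any array. RNA of whole blood was measured, so more hepatocyte material and more transcript per cell cannot be told apart.

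Arrays 4 and 5 of the p38DN unirradiated group were closer to each other than any other pair. Over 10293 genes well above background on all arrays, the differences between their levels had an SD of 0.205, the lowest among 435 pairs of arrays. The second lowest SD of a pair within a group was 0.295, and the median over the 60 pairs within groups was 0.518. Per array this SD came to 0.145, and the median absolute deviation, on which single genes weigh less, to 0.103. The median SD of bright probes spotted repeatedly within an array was 0.0604 to 0.107. These measures are unlike, so the pair is not placed above or below repeated spots. Arrays 4 and 5 may both hold 1 RNA sample and were counted as 1 sample in each mean ± SD, which gives n = 4 for the p38DN unirradiated group. The p38DN irradiation effect and its difference from p38WT are also given with the pair counted once. Results by slide, by arrays left out and by overlap of groups, and the medians in the figures, count both arrays.

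Probes of 3 genes are shown, the first pair for the plasma proteins that define the set and Fga because its probes disagreed. The probe of Alb, the gene of serum albumin, lies at chr5:90901598-90901657 of the mouse build mm9, and that of Apoa1, the main protein of high density lipoprotein, at chr9:46037921-46037980. Fga, the fibrinogen alpha chain, had a dimmer probe at chr3:82835678-82835737 and the brighter, chosen probe at chr3:82837260-82837319, both on the plus strand. Exon boundaries in mm9 were not used here. All 4 sequences hold at least 1 reading frame without a stop and are shown as printed on the array.

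Alb probe: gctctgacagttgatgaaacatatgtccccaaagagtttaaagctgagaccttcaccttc
Apoa1 probe: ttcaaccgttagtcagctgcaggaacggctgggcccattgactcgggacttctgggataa
Fga dimmer probe: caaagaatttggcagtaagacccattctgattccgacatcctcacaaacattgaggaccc
Fga chosen probe: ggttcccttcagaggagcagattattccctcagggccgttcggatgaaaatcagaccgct

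The highest array stood 9.21 above the median array by the dimmer Fga probe and 4.15 by the chosen one. The dimmer probe was well above background on 9 arrays and the chosen one on 25, so the value of Fga depends on the probe. Apoc3, an apolipoprotein of triglyceride-rich particles, likewise gave 8.87 by its chosen probe and 1.81 by the other.

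Since the members moved together, the 250 bases before their annotated starts were searched for short motifs of liver-enriched transcription factors, in the RefSeq promoter table of the build GRCm38.p6. Windows were found for 28 of the 37 members. The letters GTTAAT, the core letters of sites for the HNF1 factors, were present on either strand before 9 of these 28 genes (Alb, Fga, Fgb, Serpina1a, Serpina1b, G6pc, Pck1, Slco1b2 and Fabp1), against 7.49% of the 27025 genes with a window. TGTTTNC, the core bound by forkhead factors, was present before 16 of the 28 members and before 19.9% of all genes. TTGCNNAA, a spaced form of the C/EBP site, was present before 10 of the 28 members and 10.8% of all genes. Motifs were chosen with the members known, no test was made, and a match is not a bound site. The windows of Alb (chr5:90460620-90460869, plus strand), the fibrinogen beta chain gene Fgb (chr3:83049864-83050113, minus strand) and the alpha-1 antitrypsin gene Serpina1a (chr12:103863620-103863869, minus strand) are shown 5′ to 3′ with the GTTAAT match of either strand in capitals. The match ended 27, 24 and 16 bases before the start. The window of H2-Q10 (chr17:35469839-35470088, plus strand), a class I histocompatibility gene with a secreted product made in liver, is shown because that member stood out least. It holds none of these letters. The letters were present for G6pc, with its highest array 4.97 above the median array, and absent for Hpx (11.02) and Rbp4 (10.67). Whether they follow the size of the excess was not tested.

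Alb: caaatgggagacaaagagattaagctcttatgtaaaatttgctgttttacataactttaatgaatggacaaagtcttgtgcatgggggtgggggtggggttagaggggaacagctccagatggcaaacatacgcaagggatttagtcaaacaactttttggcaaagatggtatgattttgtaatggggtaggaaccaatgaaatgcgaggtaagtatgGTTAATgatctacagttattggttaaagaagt
Fgb: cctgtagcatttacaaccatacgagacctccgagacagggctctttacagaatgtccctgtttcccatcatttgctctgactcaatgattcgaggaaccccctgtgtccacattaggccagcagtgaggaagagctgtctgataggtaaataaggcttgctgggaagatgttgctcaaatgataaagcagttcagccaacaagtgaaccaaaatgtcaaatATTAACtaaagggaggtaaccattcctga
Serpina1a: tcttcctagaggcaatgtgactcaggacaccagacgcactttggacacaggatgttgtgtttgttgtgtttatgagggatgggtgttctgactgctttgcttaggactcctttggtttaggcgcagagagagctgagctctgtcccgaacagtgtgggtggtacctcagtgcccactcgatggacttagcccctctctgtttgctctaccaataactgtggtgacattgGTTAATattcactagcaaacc
H2-Q10: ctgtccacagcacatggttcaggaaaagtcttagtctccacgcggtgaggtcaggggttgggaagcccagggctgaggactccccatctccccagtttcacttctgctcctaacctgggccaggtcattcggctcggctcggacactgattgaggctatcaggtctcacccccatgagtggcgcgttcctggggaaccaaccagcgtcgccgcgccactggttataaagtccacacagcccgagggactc

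Averaged over the 36 measured genes, the excess was 8.52 on p38DKI irradiated array 2, where all 36 genes stood over 1 log2 unit above their own medians. The mean excess reached 6.32, 7.30 and 7.28 on numbers 2, 4 and 5 of the unirradiated p38DN group, again with all 36 genes over 1. The next highest array was p38DKI unirradiated 1, with a mean excess of 2.92 and 32 genes over 1. The p38DN irradiated arrays 1, 2, 4 and 5 had mean excesses of 1.35, 2.69, 2.43 and 1.30, and array 3 of that group had -1.16. The other p38DKI irradiated arrays gave 0.66, -1.45, 1.09 and 1.79 for numbers 1, 3, 4 and 5. In p38DN unirradiated arrays 1 and 3 the mean excess was 1.0 and 0.25. The p38DKI unirradiated arrays 2 to 5 had -1.28, -1.81, -0.16 and -0.52. The p38WT arrays were the lowest, from -2.54 to -1.81 without irradiation and from -1.70 to -0.42 after it. Within a genotype the groups overlapped in p38DKI and p38DN, and the 5 irradiated p38WT arrays all stood above the 5 unirradiated ones.

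**Figure D1:**
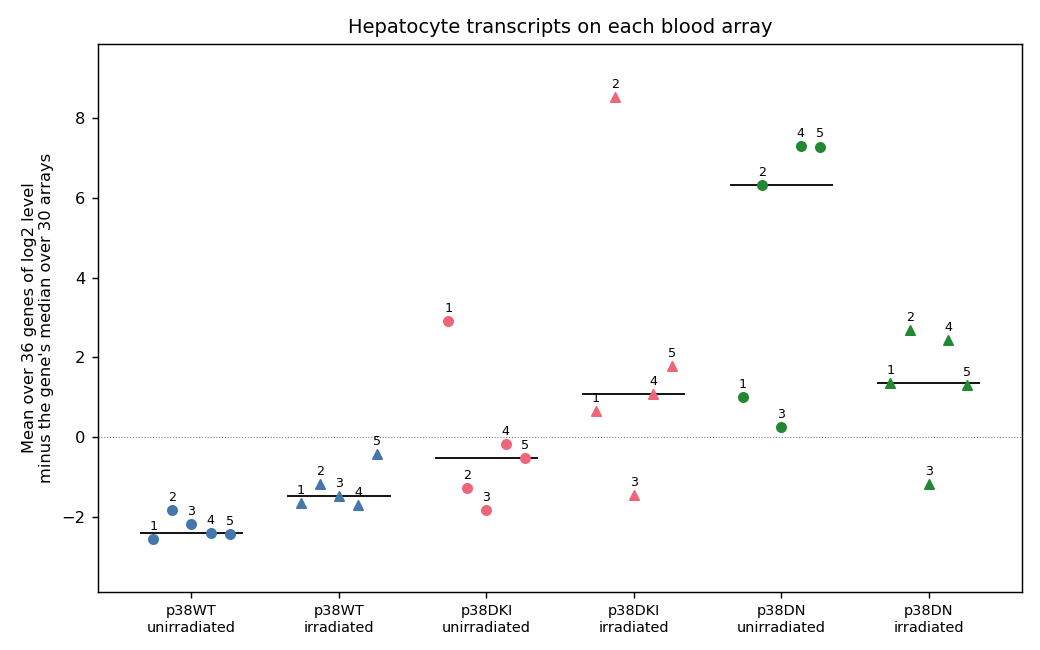
Mean excess of the 36 hepatocyte genes (log2 level minus the gene's median over 30 arrays) for each array; numbers are replicate numbers, circles are unirradiated, triangles irradiated and black lines group medians. In these medians the p38DN unirradiated arrays 4 and 5 count separately. The p38DKI irradiated array 2 (8.52) and the p38DN unirradiated arrays 2, 4 and 5 (6.32, 7.30 and 7.28) stand apart from the other arrays of their groups.

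As mean ± SD over arrays, the excess was -2.27 ± 0.286 (n = 5) in unirradiated and -1.28 ± 0.524 (n = 5) in irradiated p38WT blood. It was -0.17 ± 1.84 (n = 5) and 2.12 ± 3.77 (n = 5) in p38DKI. In p38DN it was 3.71 ± 3.60 (n = 4) and 1.32 ± 1.52 (n = 5). In p38DKI and p38DN the SD within at least 1 group exceeded the difference between its means.

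The members supplied 6.66% of the summed signal of p38DKI irradiated array 2. Their share was 1.71%, 3.21% and 3.23% for numbers 2, 4 and 5 of unirradiated p38DN blood and 0.253% for p38DN irradiated 2. On the p38WT unirradiated arrays the share lay between 0.0124% and 0.041%. The share adds intensities of unlike probes and describes the arrays only.

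For 34 of the 36 genes the 4 highest arrays were these same 4. The exceptions were Pck1, the gate enzyme of glucose synthesis, for which p38DKI unirradiated 1 took the fourth place, and Hp, the haptoglobin gene, for which p38WT irradiated 4 did. For 32 genes the highest of all was p38DKI irradiated 2, and for Cyp3a11, Cyp4a31, Rbp4 and Serpina1a it was p38DN unirradiated 4 or 5. The lowest array was a p38WT array for 28 genes, 23 of them at their lowest in the unirradiated group. The distance from the median to the highest array ranged from 3.34 for H2-Q10 to 11.92 for Itih3, with a middle value of 9.09, and exceeded 8 for 28 genes. Some of these medians, that of Itih3 among them, were not well above background. With levels that were not well above background raised, where lower, to the array's lowest level among probes that were, the distances became lower bounds from 3.34 to 11.02, the latter for Hpx, with a middle value of 8.96, and exceeded 8 for 26 genes.

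**Figure D2:**
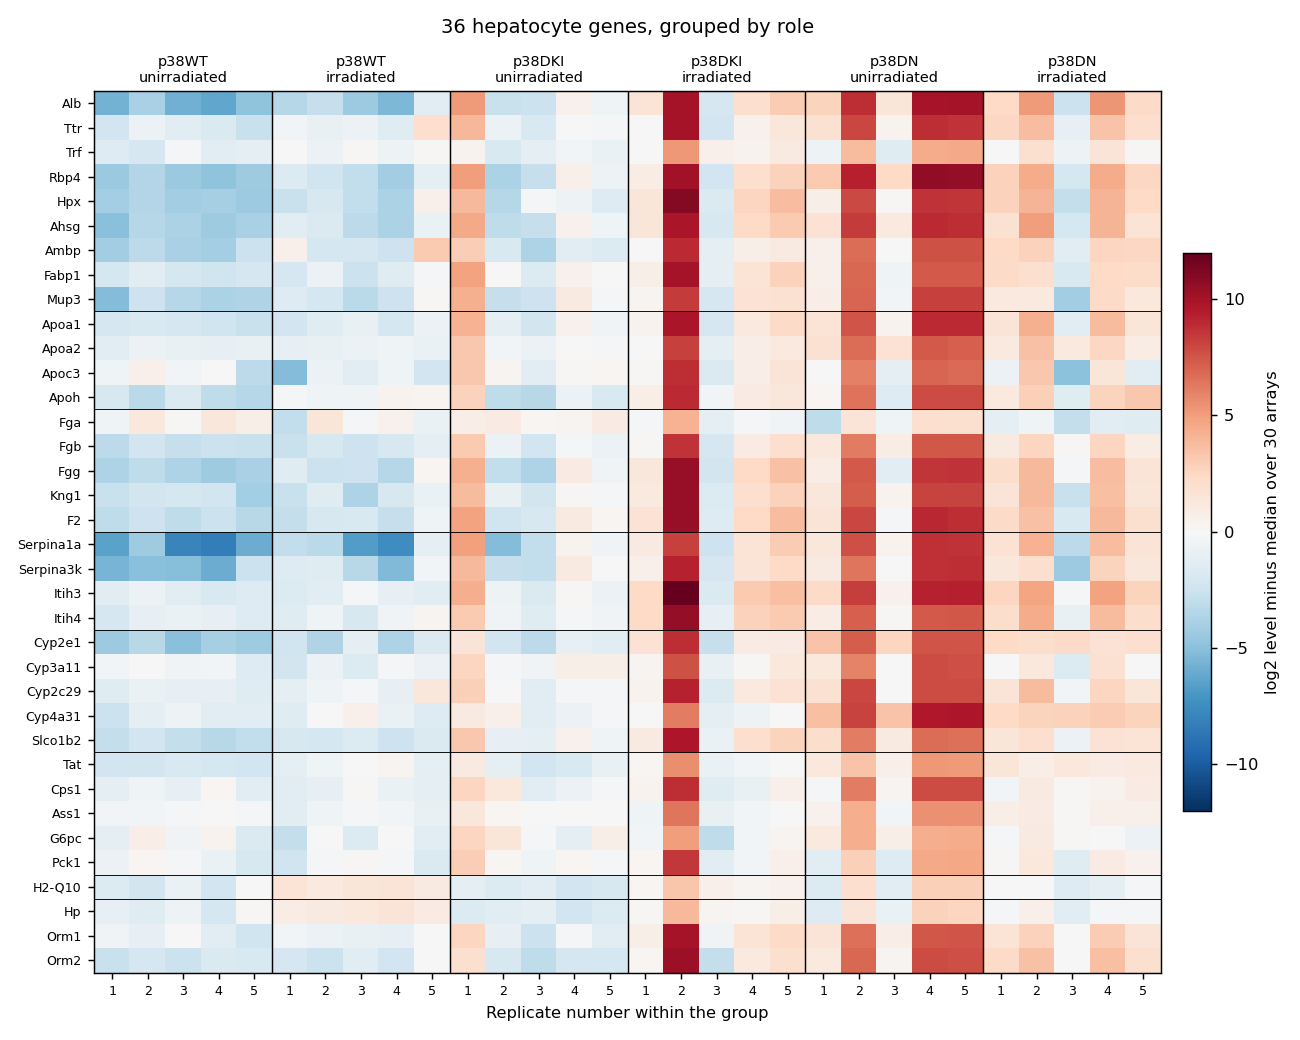
Excess of each of the 36 genes (rows, grouped by role) on each of the 30 arrays (columns, by group and replicate number), from blue below the gene's median to red above it. The red columns are p38DKI irradiated 2 and p38DN unirradiated 2, 4 and 5, and Fga, Hp and H2-Q10 are the paler rows in them.

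Among albumin and the other carriers (9 genes), Alb had levels of -5.41, -3.59, -5.47, -5.96 and -4.51 on the p38WT unirradiated arrays and -3.11, -2.48, -4.09, -5.10 and -1.02 on the irradiated ones. In p38DKI it had 5.44, -2.38, -2.30, 0.81 and -0.22 without irradiation and 1.92, 10.32, -1.73, 2.28 and 3.31 after it. In p38DN it had 2.96, 9.20, 1.75, 10.22 and 10.24, and 2.68, 5.42, -2.32, 5.60 and 2.57 after irradiation. The highest array, p38DKI irradiated 2, was 10.02 above the median array, which is about 1040-fold, and arrays 4 and 5 of p38DN unirradiated were within 0.10 of it. Alb was well above background on 3 of the 10 p38WT arrays.

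For Hpx, the haem-binding hemopexin, the levels were -5.33, -4.74, -5.35, -5.23 and -5.55, then -3.86, -3.13, -4.16, -5.04 and -0.62 in p38WT. They were 2.67, -4.67, -1.35, -1.79 and -2.80, then 0.26, 9.80, -2.99, 1.38 and 2.50 in p38DKI. In p38DN they were -0.52, 6.67, -1.09, 7.42 and 7.33, then 1.53, 2.84, -4.11, 2.83 and 1.13. Here p38DKI irradiated 2 was higher than every p38DN array by over 2 log2 units, unlike Alb. The single p38WT irradiated array 5 stood apart from its group, as it did for Ambp, the precursor of alpha-1-microglobulin, with an excess of 3.15. On that array 28 of the 36 genes were well above background, against 11 to 23 on the other 4 p38WT irradiated arrays. Ttr and Rbp4, which carry thyroid hormone and retinol, reached 10.01 and 10.67 above their medians. Trf, the iron carrier transferrin, was well above background on all 30 arrays and reached 5.19.

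In the lipid transport group (4 genes), Apoa1 had levels of -5.00, -4.78, -4.98, -5.37 and -5.66 and, after irradiation, -5.25, -4.37, -3.80, -5.08 and -3.68 in p38WT, none of them well above background. In p38DKI the levels were 1.19, -3.98, -5.11, -2.39 and -3.35, then -2.54, 6.86, -4.98, -1.81 and -0.62. In p38DN they were -1.33, 4.62, -2.53, 5.97 and 6.00, then -1.40, 1.27, -4.28, 0.82 and -1.52. The gene was well above background on 14 arrays, so its highest array stood at least 630-fold above the median array. Apoa2, a second protein of high density lipoprotein, was well above background on all arrays and reached 8.20 above its median.

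Fibrinogen and clotting genes (5) behaved alike apart from Fga. Fgg, the fibrinogen gamma chain, had -5.44, -4.84, -5.48, -5.98 and -5.66, then -3.26, -4.31, -4.26, -5.19 and -1.54 in p38WT. In p38DKI it had 2.53, -4.66, -5.42, -0.74 and -2.21, then -0.37, 8.73, -3.98, 0.68 and 1.80. In p38DN it had -0.89, 5.56, -3.01, 6.86 and 6.92, then 0.33, 2.15, -1.97, 1.97 and -0.22. Its highest array was 10.48 above the median array, beside at least 10.28 for F2 (prothrombin) and 10.43 for Kng1 (kininogen). The 4 arrays high in Alb were the 4 highest in each of these genes.

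Of the protease inhibitors (4 genes), Itih3, a heavy chain of inter-alpha-trypsin inhibitor, had the largest measured distance from median to highest array, 11.92, but its median array was not well above background. On the p38WT arrays it had -5.42, -4.83, -5.48, -5.94 and -5.67, then -5.75, -5.40, -4.30, -5.07 and -5.51, none well above background. In p38DKI it had 0.27, -4.78, -5.83, -3.95 and -4.81, then -1.76, 7.79, -5.84, -0.98 and -0.48. In p38DN it had -1.88, 4.21, -3.60, 5.14 and 5.17, then -1.52, 0.58, -4.34, 0.69 and -1.47. With dim levels raised to their bound, the highest array stood at least 1210-fold above the median array, a distance of at least 10.24 and below the 11.02 of Hpx. Serpina1a shares much of its sequence with its neighbouring copies, so its probe may read more than 1 of them.

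The acute phase group held 3 genes. Orm2, an alpha-1-acid glycoprotein, had -5.57, -4.94, -5.52, -4.69 and -4.78, then -4.91, -5.51, -4.33, -5.25 and -2.92 in p38WT. In p38DKI it had -0.99, -4.86, -5.96, -4.99 and -5.01, then -2.67, 7.28, -5.77, -1.76 and -1.07. In p38DN it had -1.75, 3.93, -2.65, 4.85 and 4.76, then -0.63, 0.62, -2.96, 0.65 and -1.0. The p38DKI irradiated array 2 exceeded the highest p38DN array by over 2 log2 units. Orm1 reached at least 588-fold above its median array, also on p38DKI irradiated 2. Hp differed from both, as it was well above background everywhere and reached 3.87 above its median.

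Among the cytochromes P450 and transport (5 genes), the uptake carrier Slco1b2 had -5.67, -5.15, -5.68, -6.11 and -5.81, then -4.72, -4.90, -4.44, -5.31 and -4.54 in p38WT, none well above background. In p38DKI it had 0.39, -3.80, -3.99, -2.27 and -3.36, then -1.76, 6.88, -3.65, -0.82 and -0.15. In p38DN it had -0.70, 3.31, -1.72, 3.87 and 3.83, then -1.38, -0.77, -3.56, -1.08 and -1.17. Its highest array stood at least 600-fold above the median array.

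Cyp4a31, a fatty acid hydroxylase, followed another order. Its levels were -5.54 to -3.54 on the unirradiated and -4.54 to -2.35 on the irradiated p38WT arrays. In p38DKI they were -1.87, -2.35, -4.29, -3.68 and -3.20, then -2.88, 3.18, -4.06, -3.55 and -3.04. In p38DN they were 0.65, 5.15, 0.49, 6.70 and 6.74 without irradiation, against -0.58, -0.29, -0.18, 0.11 and -0.30 after it. All 10 p38DN arrays lay above all p38WT and p38DKI arrays but p38DKI irradiated 2, which was 3.54 below the mean of p38DN unirradiated 4 and 5. The part of slide and scan period in this was not tested. Cyp4a31 has close paralogs, so its probe may read more than 1 of them.

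The nitrogen and glucose group (5 genes) included the dimmest member. Cps1 had -5.31, -4.74, -5.24, -4.0 and -5.47, then -5.48, -5.24, -4.12, -4.98 and -5.33 in p38WT. In p38DKI it had -1.66, -2.97, -5.52, -4.96 and -4.31, then -3.80, 4.63, -5.65, -5.09 and -3.56. In p38DN it had -4.34, 1.97, -3.92, 3.59 and 3.57, then -4.50, -3.11, -4.08, -3.78 and -3.20. It was well above background on the 5 arrays with the highest member means and on no other, and its highest array stood at least 242-fold above the median array. Ass1, an enzyme of arginine synthesis, and Tat, which degrades tyrosine, were well above background on all 30 arrays and reached 6.41 and 5.60. G6pc, which releases free glucose, reached at least 4.89 and Pck1 8.52.

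H2-Q10 stood out least. Its levels were 1.54, 0.88, 2.30, 0.88 and 3.20 in unirradiated and 4.74, 4.34, 4.61, 4.69 and 4.26 in irradiated p38WT blood. In p38DKI they were 1.96, 1.48, 1.77, 0.79 and 1.24, then 3.37, 6.47, 3.78, 3.46 and 3.64. In p38DN they were 1.48, 5.16, 1.79, 5.97 and 5.99, then 3.17, 3.10, 1.56, 2.07 and 2.93. In p38WT and p38DKI the irradiated arrays lay above all unirradiated ones, a pattern not tied to the 4 arrays high in albumin. Class I genes are alike in sequence, so other members of that family may contribute to the probe.

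Each gene's spread within groups was compared with that of all genes. The within-group SD had a median of 2.71 over the 35 tested members and of 0.51 over all 18733 genes, and all 35 members lay above the 95th percentile of all genes. This follows from how the members were picked and is given as the error against which the treatment effects stand.

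The profile of p38DKI irradiated 2 differed from that of p38DN unirradiated 4 and 5, with single samples on each side and so no test. Of the 36 members, 32 were higher on p38DKI irradiated 2, by a median of 1.21 over all 36. The largest gaps were those of Pck1 (3.91), Itih4 (3.08), Slco1b2 (3.03), Itih3 (2.63), Fabp1, the liver fatty acid binding protein (2.59), Orm1 (2.54) and Orm2 (2.48). Alb differed by 0.09. The 4 lower members were Cyp4a31 (-3.54), Serpina1a (-0.54), Rbp4 (-0.53) and Cyp3a11 (-0.09).

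Genes outside the set also differed. Of 28 other genes of liver metabolism and transport, 22 were higher on p38DKI irradiated 2 and 6 lower. Among the lower ones, Cyp4a10 and Cyp4a14, paralogs of Cyp4a31, differed by -3.35 and -3.18, whereas Cyp4a12a differed by 0.46. The probes of Cyp4a10 and Cyp4a14 may share signal with that of Cyp4a31. All 12 acute phase genes measured were higher on p38DKI irradiated 2, with a median gap of 2.60. Among these genes Saa1 and Saa2, serum amyloid A, differed by 7.24 and 7.07, and the metallothionein Mt2 by 4.78. The arrays compared differ in treatment, genotype and scan period. In p38DKI the acute phase list had a mean excess of 0.77 or higher wherever x-rays were given and of -0.03 or lower elsewhere. In p38DN the treatments overlapped, with -1.06 to 2.48 for unirradiated blood and 0.30 to 1.66 for irradiated blood. Saa2 had an excess of 4.16, 1.29, 5.40 and 5.87 on p38DKI irradiated 1, 3, 4 and 5. The part of treatment in the gap was not tested. On p38DN unirradiated 2, Saa2 had an excess of 8.73, against 3.96 and 3.60 on arrays 4 and 5, so that these arrays differed among themselves too.

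**Figure D3:**
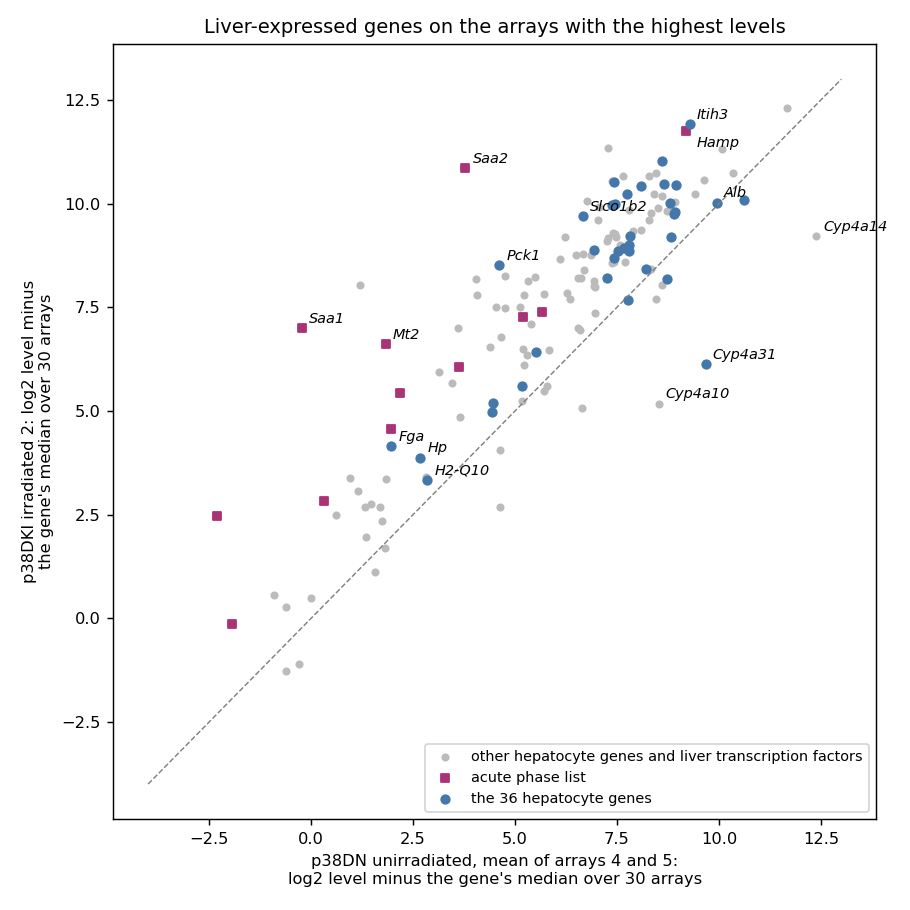
Excess of liver-expressed genes on p38DKI irradiated 2 (vertical) against the mean of p38DN unirradiated 4 and 5 (horizontal), both in log2 units; blue circles are the 36 hepatocyte genes, purple squares the acute phase list, grey points other hepatocyte genes and liver transcription factors, and the dashed line marks equality. Alb lies on the line, Cyp4a31, Cyp4a10 and Cyp4a14 lie below it, and Saa1, Saa2 and Pck1 lie far above it.

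Other hepatocyte genes, not among the members, were high on the same 4 arrays. The 33 other secreted liver proteins had a mean excess of 8.25 on p38DKI irradiated 2 while numbers 2, 4 and 5 of unirradiated p38DN had 5.61, 6.40 and 6.42. There the mannose-binding lectin Mbl2, vitronectin (Vtn) and Apob had the largest measured distances from median to highest array, which as lower bounds were 11.15, 10.67 and 9.58. Distances of the genes that lead the lists below are such bounds too, since many of their medians were not well above background. The 28 genes of liver metabolism and transport had means of 7.70, 5.86, 6.82 and 6.87 on these arrays, led by Cyp4a14 (at least 11.19), Bhmt (at least 11.44) and Fbp1 (at least 10.73). Periportal genes (12, with Cyp2f2 at 9.89, Etnppl at least 7.66 and Gls2 at least 8.59) had means of 7.63, 4.22, 5.80 and 5.88. Pericentral genes (12, with Cyp2c50 at least 8.22, Gulo at least 7.71 and Rgn at 8.13) had 6.07, 4.58, 4.81 and 4.84. Of the 12 periportal genes 12, 12, 11 and 12 stood over 1 on these arrays. Of the 12 pericentral genes 11 did on each array. The exception was Glul, with an excess of 0.49, -0.77, 0.04 and -0.04. Most listed genes of both ends of the liver lobule were thus high. The 15 liver transcription factors had 4.45, 2.42, 3.16 and 3.14, led by Creb3l3 (at least 9.11), Hnf4a (7.84) and Nr1h4 (at least 6.35).

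Lists for the other cells of the liver had smaller means. The cholangiocyte list (10 genes) had 1.08, -0.75, 0.44 and 0.33 on the same 4 arrays, and its high genes Krt18 (6.07) and Krt8 (5.92) are keratins that hepatocytes also express. The list for liver sinusoidal endothelium (12) had 1.27, -0.23, 0.51 and 0.56, and on p38DKI irradiated 2 9 of the 12 genes stood over 1 and 5 were at their highest. Lyve1, Flt4 and Mrc1, the 3 with the largest distances, were highest on other arrays. The Kupffer cell list (9) had 2.45, 0.00, 0.57 and 0.47, and Clec4f, a lectin of Kupffer cells, reached 4.33 on p38DKI irradiated 2. The stellate cell list (10) had 1.55, -0.46, -0.25 and -0.12. Lists for skeletal muscle, lung, kidney, intestine, exocrine pancreas and adipocytes lay between -1.49 and 0.85 on these 4 arrays. Within the intestinal list Fabp2, which is also transcribed in liver, reached at least 7.11.

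Markers of blood cells also differed on these arrays. On p38DKI irradiated 2 the B cell list (8 genes) had a mean excess of -4.07, against -2.24 to -1.62 on the other arrays of that group, and the T cell list (8) had -2.41 against -0.59 to -0.16. The erythroid list (8 measured) had -2.70 against -1.50 to 0.14, the neutrophil list (10) -1.0 against 0.12 to 0.83, and the platelet list (8) -1.10 against 0.31 to 1.25. All 5 lists were thus below the rest of the group. On p38DN unirradiated 4 and 5 the B cell list had 0.67 and 0.64, against 1.70 to 2.0 on arrays 1 to 3, and the T cell list had -0.89 and -0.87 against -0.43 to -0.01. Their erythroid values of 0.52 and 0.44 were below 0.62 to 1.46 on arrays 1 to 3, and the neutrophil and platelet lists lay within the range of arrays 1 to 3. On p38DN unirradiated 2 the platelet list had -1.15, against -0.69 to -0.46 on the other arrays of that group. The part of cell makeup in the hepatocyte signal was not tested.

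**Figure D4:**
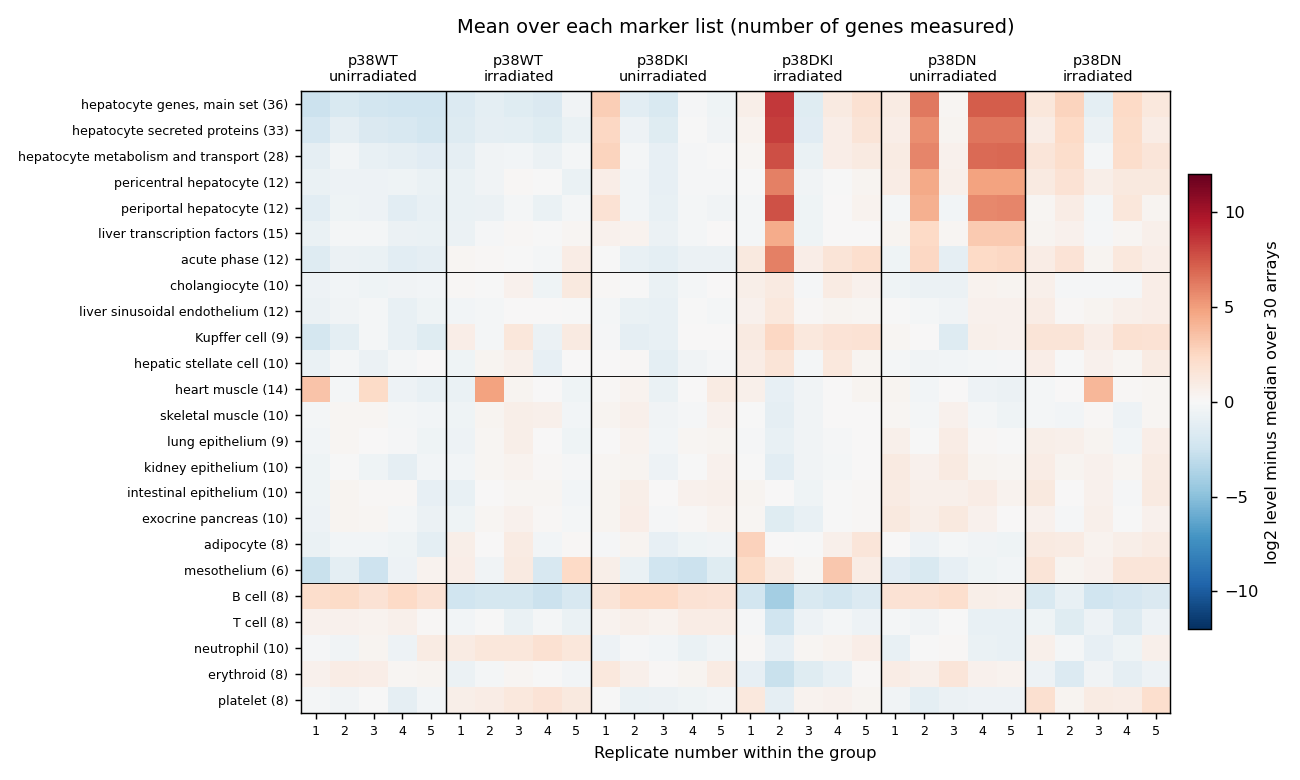
Mean excess (log2) of each marker list (rows, with the number of genes measured) on each array (columns, by group and replicate number). The 7 liver lists at the top are red on p38DKI irradiated 2 and p38DN unirradiated 2, 4 and 5, while the heart muscle list is red on other arrays, and the B cell, T cell, neutrophil and erythroid lists are lowest on p38DKI irradiated 2.

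Whether irradiation changed the hepatocyte transcripts was asked in each genotype with limma over all 18733 genes, with Benjamini-Hochberg adjustment. The members were chosen with p38DKI irradiated 2 and p38DN unirradiated 2, 4 and 5 in view, so calls that rest on these arrays are a description and support nothing. In p38WT, 2 of the 35 tested members rose and none fell, against 27.1% of all genes called, with 15% of all genes called as higher. H2-Q10 rose by 2.77 on the log2 scale (SE 0.717, limma adjusted p = 0.00477) and Hp by 2.15 (SE 0.693, limma adjusted p = 0.0213). The mean level of H2-Q10 went from 1.76 ± 0.995 (SD, n = 5) to 4.53 ± 0.215 (SD, n = 5), and that of Hp from 5.63 ± 0.853 (SD, n = 5) to 7.79 ± 0.273 (SD, n = 5). The irradiated and unirradiated arrays did not overlap for 5 members, all higher, namely Apoh, Ambp, Tat, H2-Q10 and Hp, against 12.7% of all genes. The median log2 change of the 35 members was 0.89, and that of all genes -0.03. Slide 2 alone held p38WT arrays of both treatments, 1 unirradiated and 3 irradiated, and there H2-Q10 differed by 1.36 and Hp by 0.93. With slide as a fixed block, which rests on that slide, neither was called (limma adjusted p = 0.722 and 0.837), and 0.87% of all genes were.

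The neutrophil list moved with these genes. Its mean excess lay between 1.02 and 1.81 on the irradiated and between -0.60 and 0.98 on the unirradiated p38WT arrays, the highest of the latter being array 5, which was also highest in H2-Q10 (3.20) and Hp (6.78). In p38DKI the neutrophil list ran from -1.0 to 0.83 after irradiation and from -0.76 to -0.14 before it. The array at -1.0 was p38DKI irradiated 2, where H2-Q10 (6.47) and Hp (10.51) had their highest levels. The other irradiated p38DKI arrays had 0.12 to 0.83 for the neutrophil list, above all unirradiated ones. The part of neutrophils in the rise of both genes was not tested.

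In p38DKI the same 2 of 35 members rose, against 31.3% of all genes called, 12.1% as higher and 19.3% as lower. H2-Q10 rose by 2.70 (SE 0.717, limma adjusted p = 0.00567) and Hp by 2.63 (SE 0.693, limma adjusted p = 0.00537), and both were without overlap between the groups, against 19.7% of all genes (7.23% higher). The median change of the 35 members was 2.63 and that of all genes -0.25. Without p38DKI unirradiated array 1, 6 members rose (27.3% of all genes called), and without p38DKI irradiated array 3, 9 did (26.9% of all genes called). These are the array with the highest and the array with the lowest hepatocyte mean of their groups. Cyp2e1, which oxidises ethanol, changed by 3.20 (SE 1.31, limma adjusted p = 0.0623). Slide 4 held 3 unirradiated arrays and 1 irradiated array of p38DKI, between which H2-Q10 differed by 2.10 and Hp by 1.81. With slide as a fixed block 0 of the 35 members were called, and 3.64% of all genes.

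Without the 4 arrays that had the highest mean of hepatocyte genes outside the set, H2-Q10 rose by 2.77 in p38WT and by 2.12 in p38DKI. Hp then rose by 2.15 in p38WT and by 1.92 in p38DKI. No p38WT array was among those left out, so only the spread changed there, and in p38DKI both rises were smaller. The arrays were left out by genes that move with the members, so p-values of that fit support nothing and are not given.

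In p38DN, 4 of 35 members fell and none rose, against 27.9% of all genes called, 10.3% as lower and 17.6% as higher. These were Cyp4a31 (-4.19, SE 1.12, limma adjusted p = 0.00591), the drug-oxidising Cyp3a11 (-4.25, SE 1.32, limma adjusted p = 0.0169), G6pc (-2.95, SE 1.01, limma adjusted p = 0.0294) and Cyp2e1 (-3.56, SE 1.31, limma adjusted p = 0.0426). The choice of members rested in part on unirradiated p38DN arrays 2, 4 and 5, so nothing is read from these calls. All 35 members had a negative change, with a median of -3.12 against 0.01 for all genes. With p38DN unirradiated arrays 4 and 5 counted once, only Cyp4a31 was called (-3.50, SE 1.14, limma adjusted p = 0.0248). No share of all genes stands beside that count, so nothing is read from its size. Without the 4 arrays high in other hepatocyte genes none of these 4 was called, with changes from -0.88 to -0.33, and among members a rise of Trf was. Those arrays include p38DN unirradiated 2, 4 and 5, so that only arrays 1 and 3 of that group remained. The smaller changes follow from which arrays were left out, and nothing is read from them or from the call of Trf.

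The p38DN count depended on single arrays. It was 1 without p38DN unirradiated 4 or 5 (25.4% and 25.2% of all genes called). It was 2 without p38DN unirradiated 2 (23%) or p38DN irradiated 1, 4 or 5 (25.2%, 23.6% and 24.9%). Without p38DN irradiated 3 it was 3 (28.8%), and without p38DKI unirradiated 1 or p38DKI irradiated 3 it was 7 (27.7% each). The count was 16 without p38DN unirradiated 1 (28.1%), 17 without p38DKI irradiated 2 (34.7%) and 23 without p38DN unirradiated 3 (25.9%). Leaving out a p38DKI array can change it because all groups share 1 estimate of the spread.

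On the 5 p38DN slides, irradiated minus unirradiated gave a mean excess of -3.62 on slide 6, -1.40 on slide 7, 0.35 on slide 8, -5.98 on slide 9 and -4.88 on slide 10. Slides 6, 9 and 10 hold the 3 high arrays, and slides 9 and 10 hold the pair that may be 1 RNA sample. For Cyp4a31 the difference was -5.44, -0.67, -1.23, -7.03 and -6.59 from slide 6 to slide 10, and it was negative on all 5 slides for Cyp3a11, G6pc and Cyp2e1 as well. With slide as a fixed block 6 members were called as lower and none as higher, against 26.7% of all genes called, and Cyp2e1 was not among them (limma adjusted p = 0.0807). The groups of Cyp4a31 did not overlap, and neither did those of Cyp2e1, against 20.1% of all genes without overlap, 7.69% lower.

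**Figure D5:**
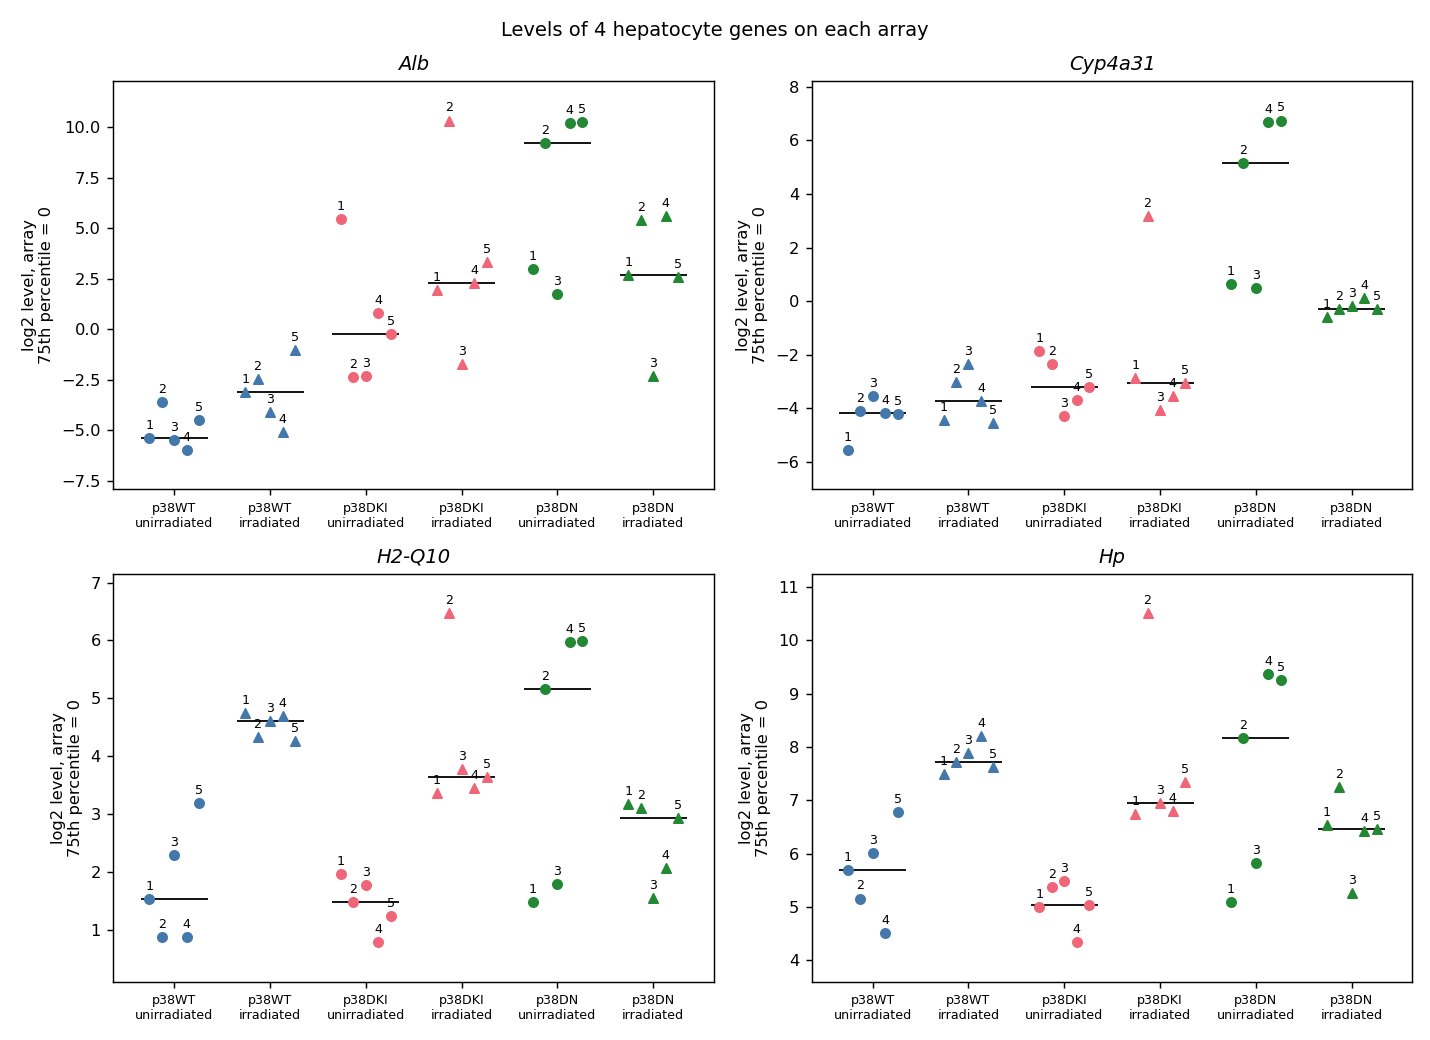
Levels (log2, 75th percentile of the array at 0) of Alb, Cyp4a31, H2-Q10 and Hp on each array, with replicate numbers, circles for unirradiated and triangles for irradiated arrays, and black lines at group medians. In these medians the p38DN unirradiated arrays 4 and 5 count separately. H2-Q10 and Hp separate irradiated from unirradiated arrays in p38WT and p38DKI, and Cyp4a31 is higher on all p38DN arrays than on all p38WT arrays.

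The irradiation effects were then compared between genotypes. For p38DKI against p38WT, 0 of 35 members differed, and 0 at an unadjusted p under 0.05, while 0.00534% of all genes were called by limma. For H2-Q10 the difference was -0.07 (SE 1.01) and for Hp 0.47 (SE 0.98). For p38DN against p38WT, 1 member differed, H2-Q10, by -4.28 (SE 1.01, limma adjusted p = 0.0332), against 1.64% of all genes. Its change was -1.51 (SE 0.717, limma adjusted p = 0.118) in p38DN itself. With p38DN unirradiated 4 and 5 counted once the difference was -3.80 (limma adjusted p = 0.0599). Without the 4 arrays high in other hepatocyte genes the difference was -1.83 and was not called. The members were chosen with those 4 arrays in view, so nothing is read from that smaller difference. The call was also lost on leaving out any 1 of 10 arrays, namely p38DN unirradiated 2, 4 or 5, p38DN irradiated 2 or 4, p38WT unirradiated 1, 2 or 4, and p38WT irradiated 2 or 4. The count became 3 members without p38DN unirradiated 1 and 5 without p38DKI irradiated 2, where 2.21% and 5.88% of all genes were called. With slide as a fixed block it was 0, against 0.0107% of all genes. The unirradiated p38DN arrays 2, 4 and 5, on which the choice of members rested, enter this difference too. Genotype and scan period cannot be told apart in this comparison.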

How the data were processed

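Blood RNA (Cy3, 1 colour) was measured on 30 Agilent arrays. Per the file headers the authors' scanner files came from Agilent Feature Extraction 12.0.2, probe positions are those of mm9, and processed signals are intensity values. The value table deposited by the authors holds log2 values of 18417 probes, 28 of them probes used here for the members. It equalled log2 processed signal plus 1 constant per array (-0.64 to 1.16), with scale and centring unstated, and served as an alternative.

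Members and lists were chosen with earlier results of these data known. Processed intensity was taken to log2, outlier spots were left out, repeated spots averaged and the 75th percentile of each array subtracted. Probes well above background on at least 4 of 5 arrays of a group, with at least 20 values, were kept (23617). For a gene name with several probes the brightest kept one was used. The p38DN files name 2693 spots differently, none of them members, and the names of the other files were used. Group means were fitted with limma 3.58.1 in R 4.3.3 (24 residual degrees of freedom, threshold 0.05, Benjamini-Hochberg over 18733 genes), tested on simulated data. The labels name 5 independent experiments per group, and the number of arrays limits precision.

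Values on every array were printed for the member of each role with the largest distance from median to highest array, for Alb and for the member with the smallest distance. Of each other list the 3 genes with the largest distance were taken. Other genes named were chosen after their values were seen. Alternatives varied scaling, background correction, filter, probe choice, slide, replicate number, arrays left out and the deposited log2 values. Python 3.11.15, numpy 2.4.6 and matplotlib 3.10.9 drew the figures.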

Additional observations from a re-analysis of the deposited data

Results flagged for a closer look

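Among 60 sets of values within a group (the member mean and the 9 genes printed array by array), 5 held an array set far apart. For independent sets the rule would flag about 1 in 20 by chance. These sets share arrays, and the members were chosen because some arrays stood out, so the count is not set against chance. On p38DN irradiated array 3, Hpx was low at -4.11 and Slco1b2 at -3.56, against -1.38 to -0.77 for Slco1b2 on the other 4 arrays of the group. That array had a member mean of -1.16 and a heart muscle list mean of 4.02. On p38DKI irradiated array 2, Cps1 was high at 4.63 and H2-Q10 at 6.47. On p38DKI unirradiated array 1, Orm2 was high at -0.99. The irradiation effect on H2-Q10 differed between p38DN and p38WT by -4.28 (limma adjusted p = 0.0332). The 5 irradiated p38WT arrays were higher than all unirradiated ones, whereas in p38DN arrays 2, 4 and 5 of the unirradiated group were higher than all irradiated ones.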

How the results depend on the processing

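Under every alternative that kept p38DKI irradiated 2 it had the highest member mean, while Alb was highest on p38DN unirradiated 5 with the percentile over probes detected on all arrays. With the main setting 12 arrays had a member mean over 1 above the median array, but 7 with normexp correction. Without the 4 arrays highest in other hepatocyte genes the highest array stood 3.75 above the median one, which follows from leaving out those arrays. Members called in p38WT numbered 0 without scaling, with normexp or with slide as a fixed block (22.5%, 7.13% and 0.87% of all genes called). They numbered 1 with quantile normalization (27.3%) and 5 without those 4 arrays. In p38DKI they numbered 0 with slide as a fixed block (3.64% of all genes) and 4 with slide as a random block, within the scan period or without those 4 arrays. In p38DN they numbered 2 without scaling (18% of all genes) and 0 with normexp (2.3%). With the percentile over probes detected on all arrays they numbered 7 (29.8%). They numbered 1 without those 4 arrays or with p38DN unirradiated 4 and 5 counted once, an alternative chosen after seeing the data. The p38DN against p38WT difference was called for 0 members with array median scaling, no scaling, normexp or no filter. Of all genes 0.566%, 1.53%, 0.00534% and 0.263% were called there. It was also called for 0 members with slide as a fixed block, without those 4 arrays, or with the pair counted once. The cause was not tested. Leaving out 1 array gave 1 to 2 calls in p38WT, 2 to 9 in p38DKI, 1 to 23 in p38DN and 0 to 5 for p38DN against p38WT, while the highest member mean stood 7.72 to 8.94 and Alb 9.50 to 10.54 above the median array. With the replicate number as a block, 10 members were called in p38DN. Deviations of same-numbered arrays correlated between -0.21 and 0.41, not all over 0.1, so the number was not taken as pairing the arrays, although in p38DN it also marks a slide. Normexp adds an offset of 50, and 6 of 36 members were well above background on all arrays, which limits dim levels. Where a count in this paragraph has no share of all genes beside it, nothing is read from its size.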

Other observations

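Heart muscle transcripts were highest on other arrays than the hepatocyte transcripts. The heart muscle list (14 genes) had a mean excess of 4.81 on p38WT irradiated 2, 4.02 on p38DN irradiated 3, 3.46 on p38WT unirradiated 1 and 2.34 on p38WT unirradiated 3, with Actc1, Myh6 and Myl2 reaching at least 7.39, at least 8.57 and 7.66. The hepatocyte mean on these 4 arrays was -1.17, -1.16, -2.54 and -2.18. On the 4 arrays with the highest hepatocyte mean the heart list lay between -1.01 and -0.34.

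The adipocyte list (8 genes) was highest on p38DKI irradiated 1, at 2.78, where Cfd, Cidec and Adipoq reached 5.36, at least 3.61 and at least 3.87. The mesothelium list (6 genes) had 3.24 on p38DKI irradiated 4, 2.39 on p38WT irradiated 5 and 2.26 on p38DKI irradiated 1, with all 6 genes over 1 on each. Its genes Wt1, Krt19 and Msln reached at least 4.08, 3.46 and 3.21. The hepatocyte mean on these arrays was 1.09, -0.42 and 0.66. The mesothelium list also had 1.49 on p38DN irradiated 4, where the hepatocyte mean was 2.43, and 1.09 on p38DKI irradiated 2.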
